A study of Mus musculus with 6 samples.

Results

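The genes described here encode the machinery that docks, primes and fuses secretory vesicles with the plasma membrane: the SNARE proteins, the synaptotagmins and their regulators. They were taken by symbol, as every gene whose name in the array files is a numbered member of the synaptotagmin (Syt), syntaxin (Stx), Snap, Vamp, Rims, Unc13, syntaxin-binding (Stxbp), complexin (Cplx), Rab3 or Cadps families, or is Nsf, Napa, Napb or Napg. The rule found 72 gene names with 102 probes, of 31829 gene names and 39429 probes on the array. Of these 72, 68 were measured well enough to be tested, 63 of them well above background on all 6 arrays. The symbol rule also takes in Snap91, which encodes a clathrin adaptor of endocytosis and is no SNARE.

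The study asked which genes depend on the beta cell transcription factor Nkx6.1 in the islets of grown mice. Islets came from male mice at 6 weeks of age, in 3 control and 3 mutant RNA samples that each pooled 2 pancreata of the same genotype. Control mice were Nkx6.1fl/+ and mutant mice Nkx6.1fl/-, littermates that all carried Pdx1-CreERTM and all received tamoxifen, at 2 mg per 25 g in each of 4 injections from the age of 4 weeks. The backgrounds were mixed, FVB/N with C57Bl/6J for the floxed line and Cd1 with C57Bl/6J for the Cre line. Mutant mice had their null allele from conception, so they had a single functional copy before tamoxifen, and control mice kept a wild-type copy that Cre cannot remove. The Pdx1 promoter is active in beta cells but also in some other cells of the adult pancreas and gut, and the islets were not sorted. In whole islets, fewer cells of a type and less RNA per cell cannot be told apart. The p-values measure the spread between these pooled samples.

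In regulated secretion, a vesicle SNARE of the Vamp family zips together with a syntaxin and a SNAP-25 family protein on the target membrane, and this drives the membranes to fuse. Sec1-type and other syntaxin-binding proteins (genes Stxbp) hold and guide the syntaxin, Munc13, Rim and CAPS proteins (genes Unc13, Rims and Cadps) make docked vesicles ready, complexins hold the partly zipped complex, and synaptotagmins trigger fusion when calcium binds. Afterwards the ATPase Nsf, with its adaptors Napa, Napb and Napg, pulls the spent SNARE complex apart. Beta cells use this neuronal type of machinery to release insulin granules when glucose raises the calcium level.

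The promoters of the 5 members that passed the test are shown first, because the gene deleted in the mutant encodes a homeodomain protein, and proteins of this class recognise a TAAT core in DNA. Each stretch runs 5′ to 3′ on the strand of its gene from 250 bases before the start site to 50 after it (RefSeq, GRCm38.p6), with every TAAT or ATTA in capitals, ATTA being TAAT on the other strand. Cadps2 lies on the minus strand (chr6:23839372-23839671), as does Stxbp6 (chr12:45074434-45074733). Syt9 (chr7:107370540-107370839), Rab3b (chr4:108878820-108879119) and Rims3 (chr4:120854549-120854848) lie on the plus strand. Cadps2, Syt9, Stxbp6 and Rab3b rose in the mutant and Rims3 fell.
Cadps2: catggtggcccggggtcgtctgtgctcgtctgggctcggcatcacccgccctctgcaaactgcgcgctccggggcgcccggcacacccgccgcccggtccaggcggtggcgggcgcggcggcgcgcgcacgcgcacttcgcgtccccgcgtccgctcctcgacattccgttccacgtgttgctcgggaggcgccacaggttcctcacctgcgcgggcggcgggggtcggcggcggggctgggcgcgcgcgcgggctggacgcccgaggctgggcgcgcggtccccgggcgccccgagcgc
Syt9: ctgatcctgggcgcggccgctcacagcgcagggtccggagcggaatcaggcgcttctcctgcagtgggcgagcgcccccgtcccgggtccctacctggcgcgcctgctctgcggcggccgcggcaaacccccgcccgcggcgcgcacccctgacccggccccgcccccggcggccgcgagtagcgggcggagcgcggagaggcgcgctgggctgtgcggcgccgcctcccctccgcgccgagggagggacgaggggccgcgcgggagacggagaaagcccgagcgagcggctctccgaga
Stxbp6: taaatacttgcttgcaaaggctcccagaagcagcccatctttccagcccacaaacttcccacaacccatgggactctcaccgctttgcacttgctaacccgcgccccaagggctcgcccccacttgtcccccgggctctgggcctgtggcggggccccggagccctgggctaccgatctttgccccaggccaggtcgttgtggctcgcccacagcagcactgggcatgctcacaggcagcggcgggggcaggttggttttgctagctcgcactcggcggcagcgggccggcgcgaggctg
Rab3b: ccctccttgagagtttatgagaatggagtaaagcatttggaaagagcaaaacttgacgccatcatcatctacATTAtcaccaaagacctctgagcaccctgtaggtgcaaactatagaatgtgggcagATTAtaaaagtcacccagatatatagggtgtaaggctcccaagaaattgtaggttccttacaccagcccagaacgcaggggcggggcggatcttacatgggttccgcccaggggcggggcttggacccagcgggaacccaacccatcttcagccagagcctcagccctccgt
Rims3: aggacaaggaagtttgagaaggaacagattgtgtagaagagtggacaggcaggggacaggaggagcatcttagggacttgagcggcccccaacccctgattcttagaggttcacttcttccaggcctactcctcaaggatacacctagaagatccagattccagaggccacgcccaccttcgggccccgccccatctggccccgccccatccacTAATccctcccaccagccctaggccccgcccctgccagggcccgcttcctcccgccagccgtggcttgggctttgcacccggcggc
The 300-base window of Rab3b held 2 such matches, that of Rims3 held 1, and those of Cadps2, Syt9 and Stxbp6 held none. In Rab3b they began at positions -178 and -122 from the start site, and in Rims3 at -36. TAAT or ATTA occurred in 58.0% of all 32851 windows in the table (27025 genes) and in 26 of the 67 windows of the members (38.8%, 55 genes matched by symbol). The longer TTAAT or ATTAA, which holds the same core, occurred in 27.1% of all windows, in 9 of the members' windows (13.4%) and in none of the 5 printed. The windows of Cadps2 and Syt9 were 79.7% and 79.3% G and C with 54 and 49 CpG pairs, that of Stxbp6 66.3% with 19, that of Rims3 62.3% with 11 and that of Rab3b 51.7% with 8. The median share of G and C was 62.7% over the members' windows and 52.7% over all windows. A match is a description of letters, and binding was not measured here.

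The signal of a gene is given as the log2 of its background-corrected intensity after subtraction of the 75th percentile of its array, so 0 is the signal at that percentile. Levels on this scale are compared only for the same probe between arrays, and the values of the 3 arrays of a group stand in the order A, B, C. Per array, 63.9% to 76.3% of all probes were well above background, and 90 to 98 of the 102 member probes were. Slide 1 carried control A with mutants B and C, and slide 2 carried mutant A with controls B and C. Nkx6-1 itself read 4.79, 4.85 and 4.64 in controls and 4.32, 4.06 and 4.45 in mutants, a difference of -0.48 ± 0.14 (SE, limma adjusted p = 0.131). Its mutant arrays were all lower than its control arrays, the difference did not pass the test, and whether its probe lies in the deleted part of the gene was not determined. The islet hormone genes Ins1, Ins2, Gcg, Sst and Ppy were well above background on all arrays. Their control means were 7.83, 7.78, 7.98, 7.88 and 8.13. Whether probes this bright could still register a difference was not tested. Ins1 and Ins2 also count in the beta cell list below, and Gcg in the alpha cell list. Of 10 beta cell markers, Slc2a2, Ucn3 and Slc30a8 fell, beside 1.12% of all genes. G6pc2, Mafa, Nkx6-1 and Pdx1 were lower without passing the test. Ins1, Ins2 and Iapp did not share these falls, with average differences of 0.26, 0.25 and 0.26 and overlapping groups. With quantile normalization their differences were -0.04, 0.01 and -0.02, so the small rises depended on the scaling and are not read as higher RNA. The list as a whole averaged, against its mean in the controls, -0.07 to 0.10 in the controls and -0.64 to -0.55 in the mutants. None of 5 alpha cell markers passed the test (median difference 0.45), and the mean of that list was -0.29 to 0.30 in the controls and 0.19 to 0.57 in the mutants. Of 11 Schwann cell and neuron markers, genes of cells that use the same fusion machinery, 9 could be tested, none passed, and their mean was -0.16 to 0.27 in the controls and 0.02 to 0.45 in the mutants. The part of these cell types in the results was not tested.

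For most of the fusion machinery no difference between mutant and control islets passed the test. The members that passed were regulators of fusion. None of the 14 syntaxins, 4 SNAP-25 family members and 7 VAMPs tested passed, beside 2.53% of all genes. These are too few genes at that share to set the SNAREs apart from the background. Cadps2, Syt9, Stxbp6 and Rab3b rose and Rims3 fell, so 5 of 68 tested members (7.35%) passed a limma adjusted p of 0.05, beside 2.53% of all 22775 genes tested. By direction these were 4 higher, beside 1.41% of all genes, and 1 lower, beside 1.12%. With slide as a block, these 5 were called again in the same directions, beside 2.94% of all genes, 1.59% higher and 1.36% lower. An unadjusted p under 0.05 was found for 14 members, beside 20.2% of all genes. The 3 mutant arrays lay wholly above or wholly below the 3 control arrays for 19 members (27.9%), 9 higher and 10 lower, beside 26.3% of all genes (12.3% higher and 14.0% lower), so by this measure the set was close to the background. A difference of at least 0.5 in either direction was found in 14 members (20.6%), beside 20.3% of all genes, and the median size of the difference was 0.21 in the members and 0.22 in all genes. The median signed difference was -0.07 in the members and -0.03 in all genes, and 27 of the 68 members were higher on average in the mutant. The 95% interval of the difference took in 0 for 54 members, and for 51 members it lay wholly within 1 log2 unit either way. For 27 it lay within 0.5.

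**Figure D1:**
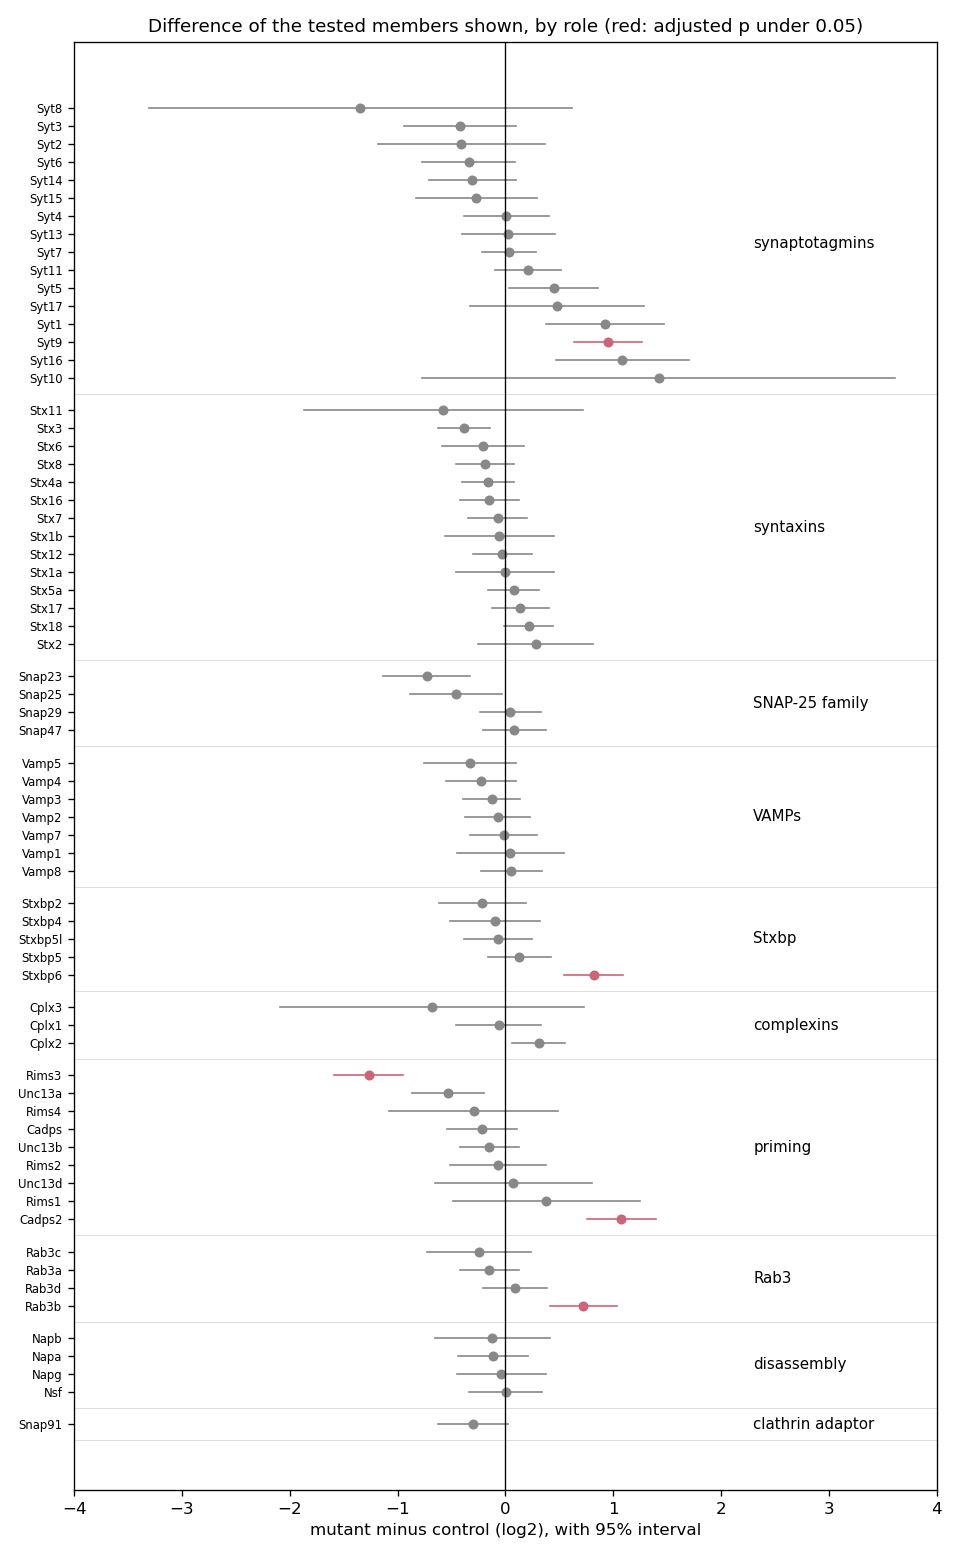
Mutant minus control difference (log2, horizontal axis) of the tested members reported here, grouped by role, as points with 95% intervals; members past an adjusted p of 0.05 are red. Syt9, Stxbp6, Cadps2 and Rab3b lie to the right of 0 and Rims3 to the left, while the VAMPs and the disassembly genes cluster at 0 and Syt10 and Syt8 have the widest intervals.

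The 5 called members did not depend equally on single arrays. Leaving out control A left 3 members called, Cadps2, Rims3 and the SNAP-25 relative Snap23, and leaving out mutant A left 2, Rab3b and Rims3, beside 418 and 282 calls among all 22775 genes. Leaving out control B, control C, mutant B or mutant C left none of the members called, and across all genes it left 13, 21, 18 and 79 calls, against 576 with all arrays. Each of the 5 kept its direction in each of 20 settings of the processing, and their differences stayed between 0.64 and 1.16 in size for the 4 that rose and between -1.35 and -0.79 for Rims3.

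The synaptotagmins are the calcium sensors of fusion, though several members of the family do not bind calcium. Of 17 names, 16 were tested, 1 rose (6.25%, beside 2.53% of all genes) and none fell. The 4 with groups apart (25.0%) were all higher in the mutant, and the share was close to the 26.3% of all genes, 12.3% of them higher (median difference 0.03). Syt9, one of the calcium sensors described for insulin granules, read -1.25, -1.005 and -1.32 in controls and -0.11, -0.34 and -0.27 in mutants. Every mutant array was above every control array, and the gap between the groups was wider than the spread within either. Syt9 was 1.93-fold higher in the mutant, a log2 difference of 0.95 ± 0.13 (SE, n = 3 and 3, limma adjusted p = 0.0296). The difference was 0.94 within slide 1 and 1.05 within slide 2, and the slide block gave an adjusted p of 0.0346. Its adjusted p lay between 0.0556 and 0.143 when any 1 of the 6 arrays was left out, so the call needed all 6.

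**Figure D2:**
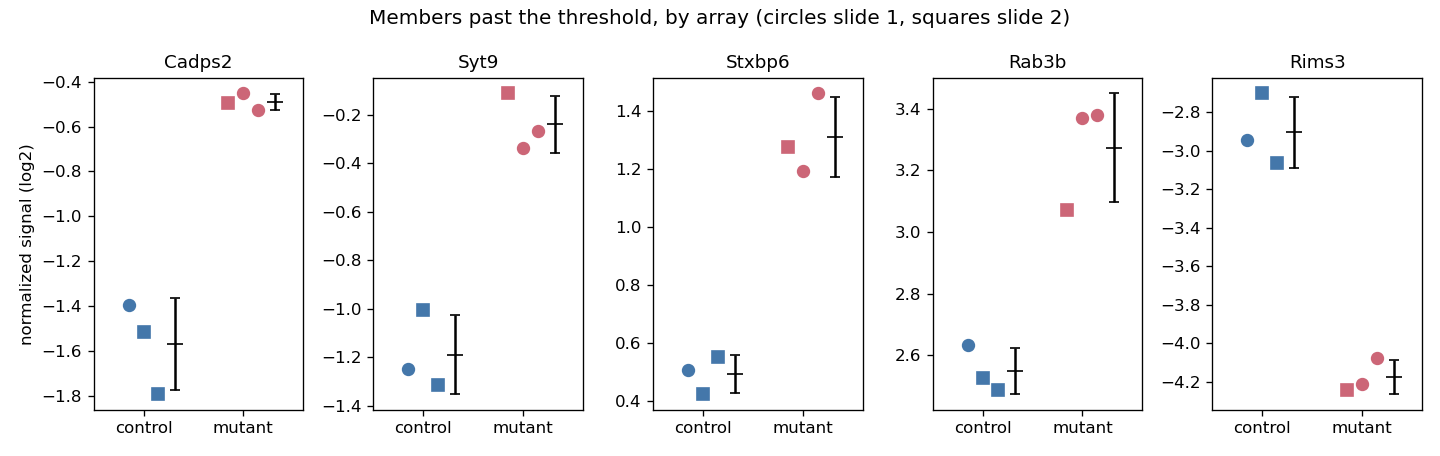
Normalized log2 signal (vertical axes, which differ between panels and do not start at 0) of the 5 called members in each control (blue) and mutant (red) array, with the mean and SD of each group of 3 as bars; circles are slide 1 and squares slide 2. In every panel the groups are apart on both slides, with Rims3 the only panel in which the mutant arrays are lower.

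Syt1, the fast calcium sensor of synapses, read -1.38, -0.91 and -1.76 in controls and -0.32, -0.53 and -0.42 in mutants. The controls were spread widely, yet all 3 lay below the mutants. The difference of 0.92 ± 0.22 (SE) did not pass the test (limma adjusted p = 0.0944, 95% interval 0.38 to 1.47). Syt16, a more distant relative, read -2.68, -2.17 and -2.38 in controls and -1.18, -0.98 and -1.82 in mutants. These groups did not overlap either, with a difference of 1.09 ± 0.25 and an adjusted p of 0.0891 (limma). Syt5, another calcium-binding member found on insulin granules, read 3.20, 3.01 and 3.12 in controls and 3.23, 3.67 and 3.78 in mutants. Mutant A was hardly above the highest control, and the difference between the groups was 0.45 (limma adjusted p = 0.216). The accession of its only probe found no match in RefSeq.

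Other synaptotagmins studied in islets showed almost no difference. Syt7, a slow calcium sensor that acts in insulin and glucagon release, read -0.45, -0.60 and -0.49 in controls and -0.49, -0.55 and -0.40 in mutants. The groups overlapped fully, and the 95% interval of the difference ran from -0.22 to 0.28. Syt4, a family member without normal calcium binding, differed by 0.01 (interval -0.39 to 0.40), and Syt13, which is also calcium-independent, by 0.03 (interval -0.40 to 0.46). The sign of these last 3 differences turned under some other settings, in 5 of them for Syt7, 8 for Syt4 and 7 for Syt13. Syt2, Syt3, Syt6, Syt14 and Syt15 were lower on average, with differences from -0.42 to -0.27, and Syt11 and Syt17 were higher by 0.21 and 0.48, all with overlapping groups and none past the test. Syt2 and Syt14 were well above background on only 1 of the 3 mutant arrays.

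Syt10 and Syt8 had the 2 largest differences of all members and the widest errors. Syt10 read 2.16, 1.20 and 0.03 in controls and 0.74, 3.27 and 3.66 in mutants. Its mutant arrays B and C and control A, which share slide 1, were its 3 highest arrays, and mutant A lay among the controls. The pooled difference of 1.42 ± 0.90 (SE, limma adjusted p = 0.426) was 1.30 within slide 1, 0.12 within slide 2 and 0.71 with slide as a block (adjusted p = 0.416). Syt8 read -1.92, -0.72 and -0.49 in controls and -0.89, -2.35 and -3.93 in mutants. It ran the other way, with the 3 arrays of slide 1 lowest. Its difference of -1.35 ± 0.80 (limma adjusted p = 0.402) was -1.22 within slide 1 and -0.29 within slide 2. A panel of 14 acinar cell markers averaged, against its control mean, -0.27, -0.06 and 0.33 in controls and -0.79, 0.95 and 1.75 in mutants. None of those 14 passed the test, mutants B and C were highest and mutant A lowest, and the part of acinar RNA in the values of Syt10 and Syt8 was not tested.

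**Figure D3:**
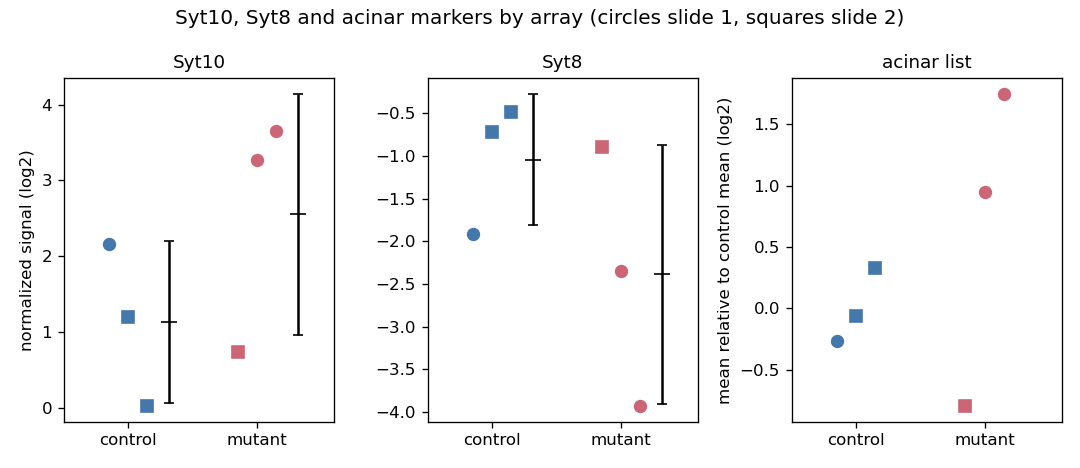
Normalized log2 signal of Syt10 and Syt8 by array with group mean and SD, and the mean of 14 acinar markers relative to the control mean (log2, right panel); circles are slide 1 and squares slide 2. For Syt10 all circles lie above all squares and for Syt8 below, and in all 3 panels mutant A stands apart from mutants B and C.

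Syntaxins and SNAP-25 proteins form the target side of the complex. Of 15 syntaxin names, 14 were tested and none passed the test, beside 2.53% of all genes (median difference -0.06). The mutant arrays were wholly higher for 1 and wholly lower for 3. This share of 28.6% was close to the 26.3% of all genes (12.3% higher and 14.0% lower). Stx1a, the plasma membrane syntaxin of insulin granule fusion, read -1.57, -1.43 and -1.54 in controls and -1.17, -1.53 and -1.85 in mutants. The mutant arrays lay on both sides of the controls, so the mean difference was -0.0029, with a 95% interval from -0.46 to 0.45. Stx4a, which acts with Snap23 in granule release, differed by -0.16 (interval -0.40 to 0.08). Stx3, a syntaxin of granules and apical membranes, read 1.03, 0.95 and 0.88 in controls and 0.64, 0.57 and 0.51 in mutants, without overlap. That difference of -0.38 ± 0.10 did not pass the test (limma adjusted p = 0.110). All 3 Stx3 probes were lower, with differences from -0.47 to -0.16. Stx18, a syntaxin of the endoplasmic reticulum, was the wholly higher one, by 0.22 (limma adjusted p = 0.264). Stx8, an endosomal syntaxin, differed by -0.19 (limma adjusted p = 0.397).

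In the SNAP-25 family, none of 4 members passed the test, beside 2.53% of all genes. The pair that acts at the plasma membrane was still lower on every mutant array. Groups were thus apart for 2 of 4, both lower, beside 26.3% of all genes (14.0% lower). Snap25 read 3.94, 4.05 and 3.92 in controls and 3.15, 3.66 and 3.72 in mutants. Mutant A was the lowest array, and the difference was -0.46 ± 0.17 (limma adjusted p = 0.220, 95% interval -0.89 to -0.03). Within slide 2, which holds mutant A, the difference was -0.84, and within slide 1 it was -0.24. Snap23, a widely expressed relative that can stand in for Snap25, read 2.90, 3.37 and 3.37 in controls and 2.35, 2.60 and 2.50 in mutants. These groups did not overlap either, with a difference of -0.73 ± 0.16 (limma adjusted p = 0.0834). Snap23 passed the threshold with a variance trend and robust estimation (adjusted p = 0.0482) or without control A (0.0457), and its second probe differed by -0.30. Snap29 and Snap47, which serve intracellular membranes, differed by 0.04 and 0.08 with overlapping groups.

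The VAMPs are the vesicle-side SNAREs, and their differences between mutant and control were small. All 7 were tested. None passed, beside 2.53% of all genes, and none had groups apart, beside 26.3%. With 7 genes these counts do not set the VAMPs apart from the background. The differences ran from -0.33 to 0.06. Vamp2, the VAMP of insulin granules and synaptic vesicles, read 2.52, 2.71 and 2.79 in controls and 2.60, 2.72 and 2.48 in mutants. The groups overlapped, and the 95% interval of the difference of -0.07 ran from -0.37 to 0.23. Vamp3, which can replace Vamp2 in granule release, differed by -0.13 (interval -0.39 to 0.14), and Vamp8, of endosomes and of granules in many secretory cells, by 0.06 (interval -0.22 to 0.34, with the sign turned in 3 other settings). Vamp5 and Vamp4 had the lowest values, -0.33 and -0.23, with limma adjusted p-values of 0.357 and 0.391.

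Among the syntaxin-binding genes, 1 of 6 members passed the test (16.7%, beside 2.53% of all genes), and it rose. Stxbp6, which encodes amisyn, a protein that binds syntaxin through a VAMP-like coil without a membrane anchor, read 0.50, 0.42 and 0.55 in controls and 1.28, 1.19 and 1.46 in mutants. Every mutant array was above every control array. Stxbp6 rose 1.76-fold, by 0.82 ± 0.11 on the log2 scale (limma adjusted p = 0.0308), with 0.82 within slide 1, 0.79 within slide 2 and an adjusted p of 0.0422 with slide as a block. Without any 1 array its adjusted p was 0.0549 to 0.141, and without the filter on dim probes it was 0.0546, so Stxbp6 was not called in those fits.

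Of the other syntaxin-binding genes, Stxbp2 differed by -0.22, Stxbp4 by -0.10, and the tomosyns Stxbp5 and Stxbp5l, which hold back SNARE assembly, by 0.13 and -0.07, all with overlapping groups.

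Complexins bind the assembled complex and both clamp and promote fusion. Of 4 names 3 were tested, and none passed, beside 2.53% of all genes. Cplx2 read 5.10, 5.07 and 5.19 in controls and 5.39, 5.53 and 5.37 in mutants for its brightest probe, higher on every mutant array by 0.31 ± 0.10 (limma adjusted p = 0.172). Its 4 probes did not share a direction. They ranged from -0.93 to 0.31, and the mean over probes was -0.21. The probe at -0.93 is placed by the files on chromosome 12, away from the other 3 on chromosome 13. Cplx1 differed by -0.06 (interval -0.45 to 0.33) with the sign turned in 5 other settings, and Cplx3 by -0.68 with an SE of 0.58.

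The priming factors held the largest fall and the largest rise that passed the test. Of 10 names 9 were tested, and 1 rose and 1 fell (22.2%, beside 2.53% of all genes). Groups were apart for 4 (44.4%), 1 higher and 3 lower, beside 26.3% of all genes (12.3% higher and 14.0% lower). Rims3, a short Rim protein that lacks the Rab3-binding part of the longer Rims, read -2.95, -2.70 and -3.07 in controls and -4.24, -4.21 and -4.07 in mutants. The mutant arrays lay close together, all below the lowest control. Rims3 was 2.41-fold lower in the mutant, a log2 difference of -1.27 ± 0.13 (limma adjusted p = 0.0174), with -1.19 within slide 1, -1.36 within slide 2 and an adjusted p of 0.0293 with slide as a block. The difference was smaller with normexp background correction (-0.79, adjusted p = 0.0287). Rims3 passed the threshold without control A or mutant A, and its adjusted p was 0.0745, 0.0726, 0.0919 and 0.0535 without control B, control C, mutant B and mutant C.

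Cadps2, a CAPS protein that primes dense-core vesicles, moved the other way. It read -1.39, -1.51 and -1.79 in controls and -0.50, -0.45 and -0.53 in mutants. The mutant arrays were nearly equal to each other and all above the controls. Cadps2 rose 2.11-fold, by 1.08 ± 0.13 on the log2 scale (limma adjusted p = 0.0242, and 0.0347 with slide as a block), with 0.90 within slide 1 and 1.16 within slide 2. A second Cadps2 probe gave 1.06, from -2.13, -2.01 and -2.40 in controls and -1.03, -1.08 and -1.23 in mutants. In a fit of each probe on its own it also passed (limma adjusted p = 0.0252), as 2.75% of all probes did. Without control A the gene stayed called (0.0351), and without any 1 of the other 5 arrays its adjusted p was 0.0573 to 0.111.

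The other priming genes did not pass. Cadps, the main CAPS protein of islets, read 2.20, 2.34 and 2.40 in controls and 2.12, 2.27 and 1.89 in mutants, overlapping groups that differed by -0.22 (limma adjusted p = 0.413). Whether Cadps2 and Cadps differed in their response was not tested. Unc13a, the Munc13 protein that opens syntaxin for assembly, read -3.28, -3.05 and -3.00 in controls and -3.45, -3.78 and -3.70 in mutants. It was lower on every mutant array than in any control, with a difference of -0.53 ± 0.14 (limma adjusted p = 0.106). The related Unc13b differed by far less, at -0.15 (limma adjusted p = 0.501). Its groups barely parted, with the highest mutant array at 1.9311 and the lowest control at 1.9317. Its difference was -0.30 within slide 1 and -0.02 within slide 2. Rims2, a long Rim that links granules to calcium channels in beta cells, differed by -0.07 (interval -0.51 to 0.37), its sign turning in 4 other settings. Rims1 differed by 0.38 with its brightest probe, where the groups overlapped, and by 1.37 with another. On that other probe every mutant array was above every control. It did not pass in the fit of each probe on its own (limma adjusted p = 0.129). Rims4 differed by -0.29 with signal above background on 1 mutant array.

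The Rab3 proteins are small GTPases on the vesicle surface that recruit Rim and other effectors. All 4 were tested and 1 rose (25.0%, beside 2.53% of all genes). Rab3b read 2.63, 2.53 and 2.49 in controls and 3.07, 3.37 and 3.38 in mutants. Every mutant array was above the controls, with mutant A the closest to them. Rab3b rose 1.65-fold, by 0.72 ± 0.13 on the log2 scale (limma adjusted p = 0.0478), with 0.74 within slide 1, 0.56 within slide 2 and an adjusted p of 0.0389 with slide as a block. It lay nearest the threshold of the 5, was lost with scaling to the median (adjusted p = 0.0680) and without the filter on dim probes (0.0831), and stayed called only without mutant A (0.0498) among the 6 fits that left out 1 array. Without control A, control B, control C, mutant B and mutant C its adjusted p was 0.0673, 0.188, 0.191, 0.170 and 0.117.

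Rab3a, the main Rab3 of insulin granules, read 3.77, 3.57 and 3.75 in controls and 3.53, 3.67 and 3.46 in mutants, overlapping groups with a difference of -0.15 (interval -0.42 to 0.13). Rab3d, best known from exocrine granules, differed by 0.09 (interval -0.21 to 0.38). Rab3c differed by -0.25 with its brightest probe, but its 3 probes ran from -0.33 to 0.77.

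Disassembly genes gave no member past the test, beside 2.53% of all genes, and no groups apart, beside 26.3%. With 4 genes tested, these counts do not set them apart from the background. Nsf read 2.05, 2.01 and 2.16 in controls and 1.83, 2.21 and 2.18 in mutants. These overlapped, and the difference of 0.0027 had a 95% interval from -0.33 to 0.34. The adaptors Napa, Napb and Napg differed by -0.12, -0.12 and -0.04 with overlapping groups, and the signs of Nsf, Napa, Napb and Napg all turned in at least 1 other setting. Snap91, the clathrin adaptor taken in by its symbol, differed by -0.30 (limma adjusted p = 0.275).

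**Figure D4:**
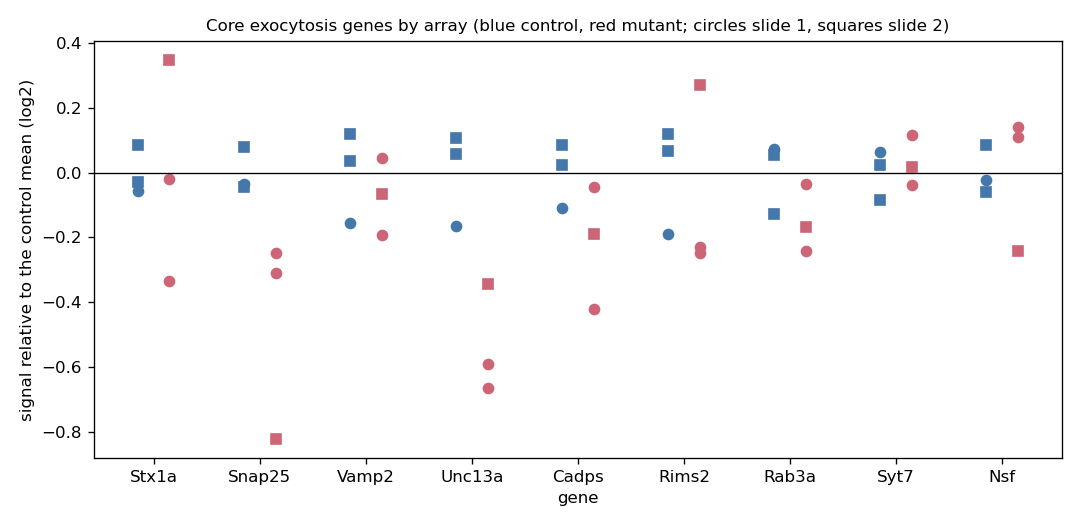
Signal of 9 genes of the central fusion machinery by array, relative to the control mean of each gene (log2, vertical axis; blue control, red mutant, circles slide 1, squares slide 2). Mutant arrays of Snap25 and Unc13a all lie below the control arrays, and the 2 groups overlap for Stx1a, Vamp2, Cadps, Rims2, Rab3a, Syt7 and Nsf.

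Of 23 genes listed as the core of regulated secretion, Cadps2 and Syt9 rose (8.70%, beside 2.53% of all genes) and none fell. Groups were apart for 9 (39.1%), 4 higher and 5 lower, beside 26.3% of all genes, 12.3% higher and 14.0% lower (median difference -0.06 in the core and -0.03 in all genes). Snap25, Snap23, Unc13a and Stx4a were among the lower ones, with values from -0.73 to -0.16. The 4 higher ones were Cadps2, Syt9, Syt5 and Cplx2, with values from 0.31 to 1.08. No SNARE of this core passed the test, nor did the disassembly genes, which at a share of 2.53% does not set them apart from all genes. The core was chosen with earlier results of these data known, so its shares are not an independent comparison with all genes.

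For 23 tested members more than 1 probe was tested, which gives a second reading on the same RNA. Probes had the same sign for 16 genes and both signs for 7, namely Cplx2, Napa, Napb, Rab3c, Stxbp4, Syt6 and Syt7. Cadps2 (1.06 and 1.08) and Stx4a (-0.16 and -0.23) had probes close to each other. Of the called members, Rims3, Syt9, Stxbp6 and Rab3b each had 1 probe, so their values have no second reading. The probes of the called members lie, in the coordinates of the files (mm9), at chr6:23213320-23213379 for Cadps2, chr7:114691578-114691637 for Syt9, chr12:45953493-45953552 for Stxbp6, chr4:108613734-108613793 for Rab3b and chr4:120563927-120563986 for Rims3. Which exon each probe covers was not looked up, because no annotation of that build was used here.

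**Figure D5:**
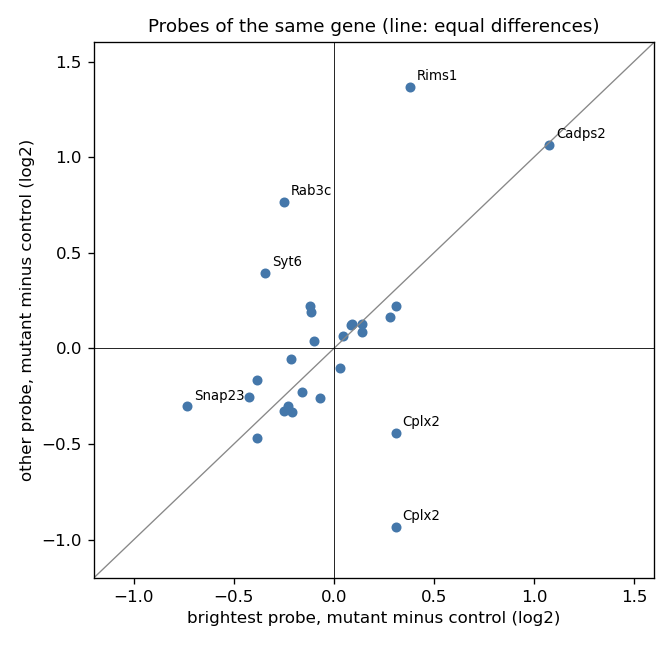
Difference (log2, mutant minus control) of each further tested probe of the members reported here (vertical axis) against that of its brightest probe (horizontal axis), 1 point per further probe, with the line of equal differences. The Cadps2 point lies near the line, and Cplx2, Rab3c, Syt6 and Rims1 have points far from it.

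The other genes of docking, tethering, vesicle membranes and trans-synaptic adhesion were taken from a list of 100 that the symbol rule leaves out, of which 96 were tested. Of these, 2 rose and 1 fell (3.1%, close to the 2.53% of all genes). Groups were apart for 34 (35.4%), 17 in each direction, beside 26.3% of all genes (12.3% higher and 14.0% lower). Sytl4, which encodes granuphilin, the Rab27 effector that docks insulin granules, read 3.86, 3.79 and 4.04 in controls and 1.68, 1.39 and 1.28 in mutants. The groups were far apart, 5.46-fold lower in the mutant, a log2 difference of -2.45 ± 0.14 (limma adjusted p = 0.0060). Sytl4 was the only gene of the list called without each single array in turn. Esyt3, an extended synaptotagmin that tethers the endoplasmic reticulum to the plasma membrane, read -2.50, -2.55 and -2.31 in controls and -1.13, -0.71 and -1.37 in mutants. It rose 2.61-fold, by 1.38 ± 0.19 (limma adjusted p = 0.0306), but the slide block raised its adjusted p to 0.0508, and it was lost without any 1 array. Nlgn1, an adhesion protein that binds neurexins, read -4.58, -5.18 and -5.17 in controls and -3.70, -2.76 and -2.81 in mutants. It rose 3.70-fold, by 1.89 ± 0.31 (limma adjusted p = 0.0433, and 0.0157 with slide as a block), and of the fits that left out 1 array it stayed called only in the one without mutant A. Nlgn1 was also lost with quantile normalization and without the filter on dim probes. Other docking factors of beta cells did not pass, with differences of 0.01 for Rab27a (interval -0.25 to 0.26) and 0.04 for the granule effector Rph3al (interval -0.21 to 0.28). The active zone scaffold Pclo read 2.56, 2.71 and 2.52 in controls and 2.21, 2.06 and 2.15 in mutants, a difference of -0.46 that did not pass (limma adjusted p = 0.0880).

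Cplx4, Unc13c, Stx19 and Syt12 were not tested because no group had them well above background on all 3 arrays. Cplx4 was above background on 2 control and 1 mutant arrays and Syt12 on 2 control and 0 mutant arrays. Unc13c and Stx19 were above it on none. A second probe of Stx8 and a second probe of Syt15 were left out for the same reason, and all other 96 probes of the members were tested.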

How the data were processed

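RNA of 6 pooled islet samples was labelled with Cy3 (150 ng each) and measured on single-colour Agilent arrays. Per the file headers, the authors' deposited scanner files (Agilent Feature Extraction 10.7.3.1, per the submitters' processing notes) hold spot intensities from which background was subtracted and spatial trends removed, not yet scaled between arrays. The deposited flags (other values) mark saturation, outliers and signal well above background. Intensities deposited a second time, equalized by the authors in a way not given in the sources used here, served as an alternative.

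Log2 values were averaged over the spots of a probe, and each array was scaled by the 75th percentile of its 43020 non-control spots. A probe was tested (28361 of 39429) if all arrays of either group had it well above background, and each gene name was represented by its brightest such probe. Mutant and control were compared by limma 3.58.1 in R 4.3.3 (files read by data.table, release 1.17.8; python 3.11.15), two-sided, with Benjamini-Hochberg adjustment over 22775 genes and calls at an adjusted p under 0.05. The procedure was tested on simulated data. The number of arrays limits the precision, and an exact permutation test of 3 against 3 was not used because it cannot reach the threshold. The accessions of 101 of the 102 member probes matched the same symbol in RefSeq. The only probe of Syt5 had no match, so its identity rests on the name in the array files. Slides were read from the array barcodes. Letters A to C were not used as pairs, because no label says that they mark litters. Same-letter samples deviated from their group means with correlations of -0.23, -0.19 and -0.03. Same-letter samples always lay on different slides, so these correlations cannot show whether the letters mark litters.

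The named genes were all called members, those with groups apart by at least 0.5, the 3 of each role with the smallest p, and a core of regulated secretion; other members are given in ranges, and 1 member, included in the counts, is not reported here. The members and all lists, including the 100 other vesicle genes and the cell type markers, were chosen with earlier results of these data known. Alternatives were normexp background correction (offset 50), quantile and median scaling, those equalized values, no filter or a filter on all 6 arrays, outlier spots removed, a block on slide or on letter, a variance trend, all probes or their mean, an adjusted p under 0.1 and each array left out. Added after seeing the data were the fits without mutants A and B and with quantile normalization and slide as a block. Acinar, alpha, beta and Schwann or neuron markers are given in the text. The delta, PP, duct, endothelial, leukocyte and mesenchyme lists had no called member, with median differences from -0.24 to 0.57.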

Additional observations from a re-analysis of the deposited data

How the results depend on the processing

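The 5 called members became 3 without the filter on dim probes (Cadps2, Syt9 and Rims3), 9 at an adjusted p under 0.1 (6 higher, 3 lower) and 0 without mutants A and B together. Without that filter 72 members were tested, and 413 of 31829 genes were called. The all-gene count at an adjusted p under 0.1 is not given here. Without 1 array, 13 to 418 of all genes were called, and the member count ran from 0 to 3. With the letters as a replicate block it was 0, with a lowest adjusted p of 0.154 and 11 members at an unadjusted p under 0.05 (limma), against 14 in the fit without the block. Across all genes that block gave 0 calls, with 3163 at an unadjusted p under 0.05. All other settings gave 4 to 6 member calls, beside 433 to 785 calls among all genes or probes. Scaling to the median lost Rab3b, and a variance trend added Snap23. The 3 called genes among the other vesicle genes became 6 at an adjusted p under 0.1 (2 higher, 4 lower), 0 with the replicate block, 0 without mutants A and B, and 1 to 2 without 1 array. Nlgn1 was lost with quantile normalization and without the filter on dim probes, and Esyt3 with slide as a block. The fit without mutants A and B leaves a lone mutant array, which is assumed to vary like the controls. No called member changed direction in any setting. Rims3 was smallest with normexp background correction, at -0.79, and with the deposited table, at -0.85. Cplx3, Stx11, Rims4, Syt2 and Syt14 were not above background on every mutant array, so signal over background limits their differences. The cause of these shifts was not tested.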
